A study of Mus musculus with 12 samples.

Results

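The 10 imprinted genes studied here act in growth and in neurons. They were followed in mouse cerebellum through the first postnatal month: Nnat, Magel2, Ndn, Peg3, Mest, Dlk1, Igf2, H19, Cdkn1c and Grb10. All probe sets that the array annotation assigns to these genes were taken, which gave 16 of the 12488 probe sets on the array. Of these 16, 13 passed a filter on mean signal, as did 7453 on the whole array, and each of the 10 genes kept at least 1 probe set. No measured threshold set the members, but they were chosen with earlier results of these data known. The 3 that did not pass were the second probe set of Igf2 and the dimmer pair of Grb10.

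RNA came from cerebellum of euploid mice and of Ts1Cje mice, which carry a segmental trisomy of chromosome 16 and are studied as a model of Down syndrome. Each genotype was sampled at P0, P15 and P30, that is on postnatal days 0, 15 and 30, and the labels name no treatment. Total RNA of 3 cerebella was pooled for each genotype and stage, except for euploid P30, where the pool held 2, and each of the 6 pools was hybridised to 2 Affymetrix arrays. The 2 arrays of a pool repeat 1 RNA sample, so the pool is the replicate and each genotype and stage has 1 pool. No member lies on chromosome 16: by the RefSeq table, Nnat is on chromosome 2, Mest on 6, Magel2, Ndn, Peg3, Igf2, H19 and Cdkn1c on 7, Grb10 on 11 and Dlk1 on 12.

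An imprinted gene is transcribed mainly or only from the copy inherited from one parent, because methylation laid down in the germ line marks the copies differently. Many imprinted genes act on growth before and around birth: genes active on the paternal copy, such as Igf2, Peg3, Mest and Dlk1, often favour growth, while genes active on the maternal copy, such as H19, Cdkn1c and, in most tissues, Grb10, often restrain it. Nnat, Magel2 and Ndn are active on the paternal copy and are known from developing neurons, with Magel2 and Ndn lying in the region that is affected in Prader-Willi syndrome. The cerebellum grows mostly after birth in mice, as granule cell progenitors divide and settle and Purkinje cells mature, so P0 to P30 spans most of its growth.

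The values are linear signal intensities, here called signal, and the array cannot tell which parental copy a transcript came from. Signals of different probe sets cannot be set against each other, so all comparisons are within a probe set. Differences are on the log2(signal + 4.6) scale, on which changes of dim probe sets come out too small. The median signal per array lay between 30.4 and 36.2, and the correlation of log2 values between the 2 arrays of a pool lay between 0.967 and 0.975. Tests of stage and of genotype are from limma on all 6 pools, and an adjusted p is its p-value after Benjamini-Hochberg adjustment over the 7453 tested probe sets, called at 0.05. With 1 pool per genotype and stage, the spread in these tests is what an additive model of genotype and stage leaves over. In pooled tissue, fewer cells of a type and less RNA per cell cannot be told apart. Markers of cerebellum were present: of 17 in the list 12 were tested, of which 10 rose from P0 to P30 and 1 fell, with Pcp2 of Purkinje cells higher by 3.99 ± 0.24 (SE; limma, adjusted p = 1.1e-05) and Gabra6 of mature granule cells by 8.13 ± 0.21 (limma, adjusted p = 1.29e-07).

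Between P0 and P15, 10 of the 13 tested probe sets fell, from 8 genes: Nnat, Magel2, both of Ndn, the first and second of Peg3, Dlk1, the probe set annotated to H19 and Mir675, Cdkn1c and the first of Grb10. Over all tested probe sets 14.4% were called lower in this comparison and 13.6% higher, and 0 members were called higher. The median difference of the members was -1.19, against -0.033 for all tested probe sets. A fall of at least 4-fold that was also called occurred in 4 members, Nnat, Magel2, H19/Mir675 and Cdkn1c, against 0.872% of all tested probe sets. Magel2 and the first Grb10 probe set were above the filter on mean signal at P0 alone. Mest was above it at P0 (35.5) and P15 (23.6) but under it at P30 (16.1), so its pass also rested on P0. The members were, besides, chosen with earlier results of these data known. These counts and medians are therefore a description of the members and no test of them as a set.

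**Figure D1:**
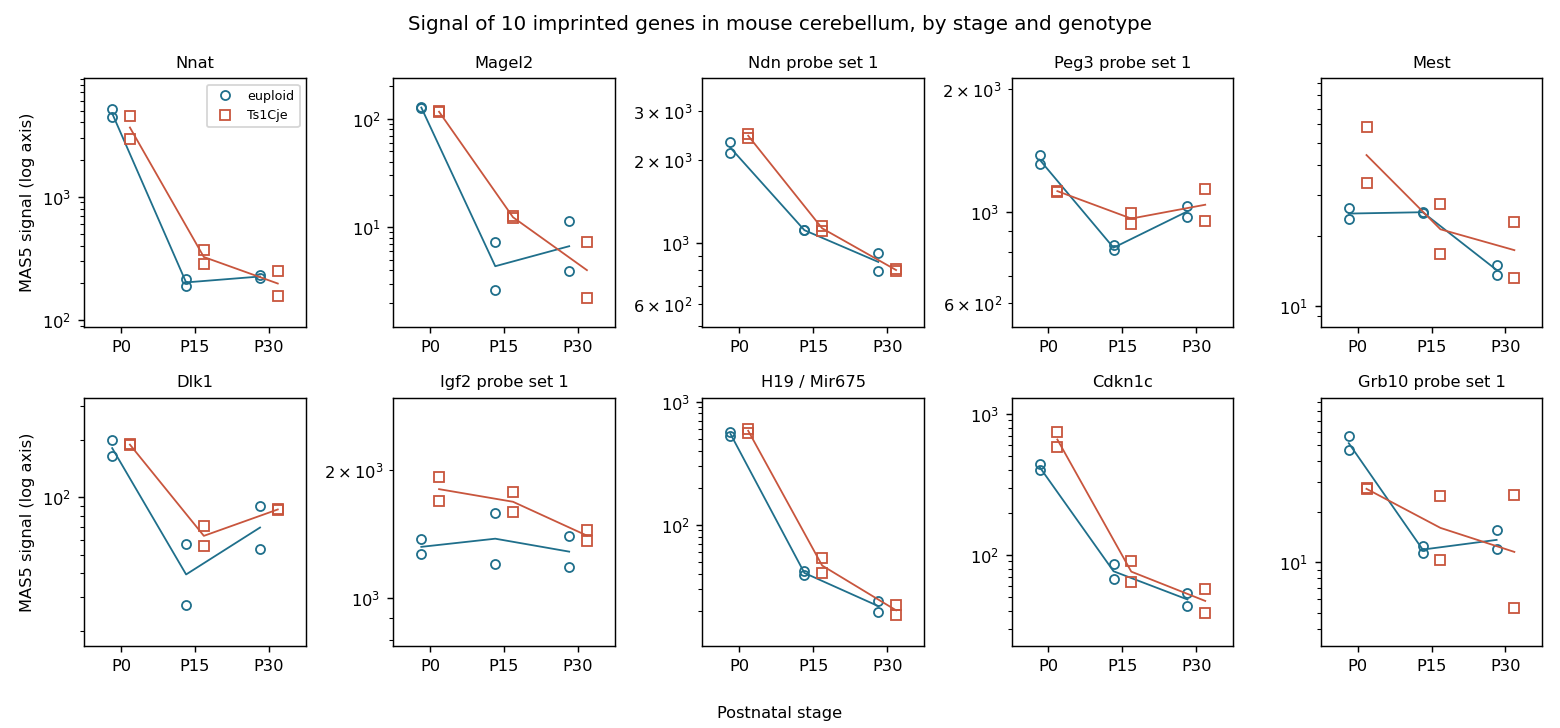
Signal of the brightest probe set of each of the 10 genes (y axis, MAS5 signal, logarithmic and scaled for each gene) at P0, P15 and P30 (x axis), with circles for the arrays of euploid pools, squares for those of Ts1Cje pools and lines through the pool means. Nnat, Magel2, H19/Mir675 and Cdkn1c drop between P0 and P15 in both genotypes, Ndn drops at each step, and Igf2 and Peg3 stay within a narrow range.

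Nnat encodes neuronatin, a small membrane protein of the endoplasmic reticulum in developing neurons. Its arrays read 4408 and 5097 in the euploid P0 pool, 215 and 190 at P15, and 231 and 221 at P30. The Ts1Cje arrays read 4533 and 2924 at P0, 372 and 284 at P15, and 250 and 157 at P30. Every P0 array was far above every later array in both genotypes, and the later stages lay close together. By limma, Nnat fell by 3.99 ± 0.23 (SE, 6 pools), or 15.9-fold, from P0 to P15 (adjusted p = 1.54e-05), the largest fall among the 7453 tested probe sets (rank 1). From P0 to P30 it fell by 4.27 ± 0.23 (limma, adjusted p = 6.19e-06). The step from P15 to P30 was -0.27 ± 0.23 and did not pass the test (limma, adjusted p = 0.524). This probe set carries the suffix _s_at, which marks probes that can match more than 1 transcript.

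Magel2 encodes a MAGE protein that works with the ubiquitin ligase Trim27 in protein recycling from endosomes. Its arrays read 125.9 and 128.5 in the euploid P0 pool and 117.0 and 115.7 in the Ts1Cje P0 pool. At P15 and P30 the 8 arrays lay between 2.2 and 12.6, with a mean of 8.65 at P15 and 6.2 at P30. These later readings are close to the pseudocount of 4.6, so the P0 level is what was measured and the later order is not resolved. By limma, Magel2 fell by 3.33 ± 0.33 to P15 (adjusted p = 0.000212) and fell by 3.62 ± 0.33 to P30 (adjusted p = 7.68e-05). The size depends on the pseudocount: with 16 in place of 4.6 the fall to P15 was -2.50.

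Ndn encodes necdin, a MAGE protein that holds back division and cell death in neurons that have left the cell cycle. Its first probe set read 2314 and 2112 in euploid P0, 1112 and 1112 at P15, and 923 and 789 at P30. The Ts1Cje readings were 2407 and 2481 at P0, 1109 and 1150 at P15, and 807 and 788 at P30. The 3 stages did not overlap in either genotype, and the order P0 over P15 over P30 held in both. The second probe set, an _s_at set like that of Nnat, read 1132 and 1209, then 447 and 412, then 434 and 392 in euploid. In Ts1Cje it read 982 and 1024, then 440 and 454, then 418 and 343. Its P15 and P30 arrays overlapped in euploid. By limma the 2 probe sets fell by 1.05 ± 0.13 (adjusted p = 0.000644) and 1.30 ± 0.14 (adjusted p = 0.000337) to P15. To P30 they fell by 1.49 ± 0.13 (adjusted p = 5.62e-05) and 1.44 ± 0.14 (adjusted p = 0.000104). The P15 to P30 step of the first, -0.44 ± 0.13, did not pass the test (limma, adjusted p = 0.0957). At P30 both Ndn probe sets thus still read well above the pseudocount.

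Magel2 and Ndn are neighbours that both fell, and Peg3, also paternal and on chromosome 7, changed little. The bases in front of Nnat, Magel2, Ndn and Peg3 are therefore shown. Each is the 200 bases before the outermost RefSeq boundary of the gene in GRCm38.p6, which for Peg3 lies upstream of the start used in the promoter table, 5′ to 3′ on the gene's strand, with CG pairs, the sites where imprinting marks are laid, in capitals. The windows are chr2:157559878-157560077 on the plus strand for Nnat with 11 CG pairs, chr7:62348077-62348276 on the plus strand for Ndn with 4, chr7:62376779-62376978 on the plus strand for Magel2 with 7, and chr7:6730463-6730662 on the minus strand for Peg3 with 7.
Nnat: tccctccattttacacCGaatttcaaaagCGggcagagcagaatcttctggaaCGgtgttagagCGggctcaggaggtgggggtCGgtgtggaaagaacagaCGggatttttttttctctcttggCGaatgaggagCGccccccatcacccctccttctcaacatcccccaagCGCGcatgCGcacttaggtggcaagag
Ndn: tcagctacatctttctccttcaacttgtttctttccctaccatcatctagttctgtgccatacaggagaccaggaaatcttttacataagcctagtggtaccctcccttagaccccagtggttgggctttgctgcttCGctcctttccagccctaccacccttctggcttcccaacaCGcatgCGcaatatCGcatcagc
Magel2: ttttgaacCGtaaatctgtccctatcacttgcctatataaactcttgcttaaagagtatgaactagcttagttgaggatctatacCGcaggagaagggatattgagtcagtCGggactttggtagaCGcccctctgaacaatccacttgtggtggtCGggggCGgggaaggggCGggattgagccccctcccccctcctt
Peg3: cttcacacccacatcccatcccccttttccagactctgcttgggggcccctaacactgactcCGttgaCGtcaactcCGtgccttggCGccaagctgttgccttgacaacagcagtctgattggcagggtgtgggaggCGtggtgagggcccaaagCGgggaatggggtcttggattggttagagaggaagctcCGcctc

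The RefSeq promoter table gave 14 windows for 8 of the 10 genes, each of 300 bases from 250 before to 50 after a gene start. Their CG pairs ranged from 2, at an Igf2 start, to 45, at a Grb10 start, and the median of all 32851 windows in the table was 7. The 4 motifs named next were searched on both strands, and none is contained in another. TATAAA occurred in 1 member window, that of Magel2, and in 13.6% of all windows. GGGGCCCC occurred in 1, that of Peg3, and in 1.08% of all windows. GGGCGG occurred in 8 member windows from 5 genes and in 35.7% of all windows, and CCAAT in 2 member windows, of Peg3 and Igf2, and in 37.4% of all. These matches describe the letters only, and the arrays hold no methylation or binding data.

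H19 is a long noncoding RNA from the maternal copy, next to Igf2 on chromosome 7, and its transcript is also the precursor of miR-675. The probe set is annotated to both H19 and Mir675, so its values cannot be given to H19 alone. The mature products of that precursor are shown because the transcript measured here carries them, with the seed (bases 2 to 8) in capitals. They lie on the minus strand of GRCm38.p6 at chr7:142577078-142577099 for the 3p arm and chr7:142577112-142577133 for the 5p arm, and they do not share a seed. The array did not measure the mature forms.
miR-675-3p: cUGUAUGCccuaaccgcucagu
miR-675-5p: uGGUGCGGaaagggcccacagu

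The H19/Mir675 probe set read 524 and 569 in euploid P0, 42.2 and 38.9 at P15, and 24.1 and 19.7 at P30. In Ts1Cje it read 559 and 599 at P0, 53.5 and 40.5 at P15, and 18.3 and 22.2 at P30. The stages fell in the same order in both genotypes, with no overlap at either step. By limma it fell by 3.56 ± 0.17 to P15 (11.8-fold, adjusted p = 3.61e-06) and fell by 4.47 ± 0.17 to P30 (22.2-fold, adjusted p = 6.72e-07), which rank 3 and 5 among the falls of all tested probe sets. It was also the only member called from P15 to P30, where it fell by 0.91 ± 0.17 (limma, adjusted p = 0.0244). In that later step 1 of 13 members was called lower and 0 higher, against 3.13% lower and 1.61% higher of all tested probe sets. The call for the later step was lost without the Ts1Cje P30 pool (-0.80, limma, adjusted p = 0.216), and with the second arrays alone (-0.80, limma, adjusted p = 0.129).

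Cdkn1c encodes p57, an inhibitor of cyclin-dependent kinases that lets progenitors leave the cell cycle, and it is active on the maternal copy. It read 443 and 399 in euploid P0, 86.8 and 67.6 at P15, and 43.3 and 53.9 at P30. In Ts1Cje it read 581 and 748 at P0, 90.0 and 64.4 at P15, and 39.0 and 57.1 at P30. The P0 arrays stood above all others, and P15 above P30, in both genotypes. By limma it fell by 2.71 ± 0.20 (6.56-fold, adjusted p = 5.6e-05) to P15 and fell by 3.34 ± 0.20 (10.1-fold, adjusted p = 1e-05) to P30. The P15 to P30 step was -0.63 ± 0.20 and was not called (limma, adjusted p = 0.121).

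Dlk1 encodes a membrane protein related to the Notch ligands that keeps progenitors from differentiating. It read 163.5 and 200 in euploid P0, 27.4 and 56.7 at P15, and 53.4 and 90.2 at P30. The Ts1Cje arrays read 188.1 and 189.2 at P0, 71.0 and 55.5 at P15, and 86.5 and 86.1 at P30. P0 was highest in both genotypes, and P30 lay above P15 on the means, with overlapping arrays in euploid. By limma Dlk1 fell by 1.79 ± 0.18 to P15 (3.46-fold, adjusted p = 0.000279) and by 1.21 ± 0.18 to P30 (2.31-fold, adjusted p = 0.00121). The P15 to P30 step, 0.59 ± 0.18, ran upward and did not pass the test (limma, adjusted p = 0.116).

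Grb10 encodes an adaptor that binds the insulin and IGF1 receptors and dampens their signal, and in neurons it is transcribed from the paternal copy. Its first probe set, an _s_at set, read 46.5 and 56.6 in euploid P0, 12.5 and 11.3 at P15, and 11.9 and 15.5 at P30. In Ts1Cje it read 27.6 and 27.2 at P0, 24.9 and 10.3 at P15, and 25.0 and 5.3 at P30. By limma it fell by 1.19 ± 0.31 to P15 (adjusted p = 0.023) and by 1.26 ± 0.31 to P30 (adjusted p = 0.0128). Both calls were lost without the euploid P0 pool, at -0.72 and -0.79, and the call to P15 likewise without the euploid P15 pool, at -0.79. With the first arrays alone both calls were lost as well, at -0.85 and -0.88. The second probe set, not tested, read between 11.1 and 36.5 with its highest stage mean, 27.9, at P0, and the remaining one read 0.4 to 6.0 throughout.

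Peg3, Mest and Igf2 followed the decline least. Peg3 encodes a zinc finger protein tied to maternal behaviour and growth. Its first probe set read 1379 and 1312 in euploid P0, 809 and 831 at P15, and 976 and 1037 at P30. The Ts1Cje readings were 1124 and 1130, then 935 and 999, then 955 and 1141. P15 was the lowest stage in euploid without overlap, while in Ts1Cje the P30 arrays overlapped both other stages. By limma the first and second probe sets fell by 0.47 ± 0.15 (adjusted p = 0.0481) and 0.53 ± 0.13 (adjusted p = 0.0184) to P15. At P30 the differences from P0 were -0.26 ± 0.15 (adjusted p = 0.196) and -0.34 ± 0.13 (limma, adjusted p = 0.0717). The call of the first was lost in 9 of 16 alternatives, among them the fits without the euploid P0 pool (-0.27), the euploid P15 pool (-0.30) or either P30 pool (-0.47). The call of the second was lost without the euploid P0 pool (-0.50) or the Ts1Cje P0 pool (-0.55), and with the second arrays alone (-0.52). The last, an _f_at set whose probes may match related genes, read 85.9 to 134.3 with a P0 to P30 difference of -0.016 ± 0.16 (limma, adjusted p = 0.947).

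Mest encodes an enzyme of the hydrolase family that is abundant in embryonic mesoderm. Its single probe set was dim: it read 26.2 and 23.6 in euploid P0, 25.1 and 25.3 at P15, and 13.6 and 14.9 at P30. In Ts1Cje it read 33.6 and 58.5, then 27.3 and 16.6, then 13.1 and 22.9. Euploid P0 and P15 overlapped and P30 lay below both, whereas in Ts1Cje P0 lay above both later stages. The fall to P30 was called at -0.90 ± 0.28 (limma, adjusted p = 0.0318), but the step to P15 was not (-0.45 ± 0.28, adjusted p = 0.266). The call was lost in 5 of 15 alternatives: without the Ts1Cje P0 pool, at -0.54, without the euploid P30 or Ts1Cje P30 pool, at -0.92 and -0.88, with the second arrays alone, at -0.87, and with no filter, at -0.90.

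Igf2 encodes insulin-like growth factor 2, a fetal growth factor that in the brain is made mainly by the meninges, the choroid plexus and vessels. Its first probe set, a _g_at set, read 1376 and 1268 in euploid P0, 1203 and 1585 at P15, and 1399 and 1185 at P30. The Ts1Cje arrays read 1694 and 1924, then 1597 and 1780, then 1364 and 1445. All stages overlapped in euploid, and in Ts1Cje P30 lay below the other stages. The P15 minus P0 difference was -0.017 ± 0.13 (limma, adjusted p = 0.934) and turned to 0.14 with quantile normalization and to 0.052 with equal array medians. The P30 minus P0 difference was -0.20 ± 0.13 (limma, adjusted p = 0.262). The second probe set, which has the same source accession, read 0.8 to 5.0 on all 12 arrays, so the 2 probe sets of Igf2 disagree and the level of the gene is uncertain.

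Over the whole span from P0 to P30, 9 of 13 tested probe sets, from 8 genes, were called lower and 0 higher, against 19.6% lower and 19.4% higher of all tested probe sets. The member median was -1.26, against 0.036 for all, and these values too describe the members and do not test them as a set. Mest was called here and Peg3 was not, while from P0 to P15 the reverse held.

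**Figure D2:**
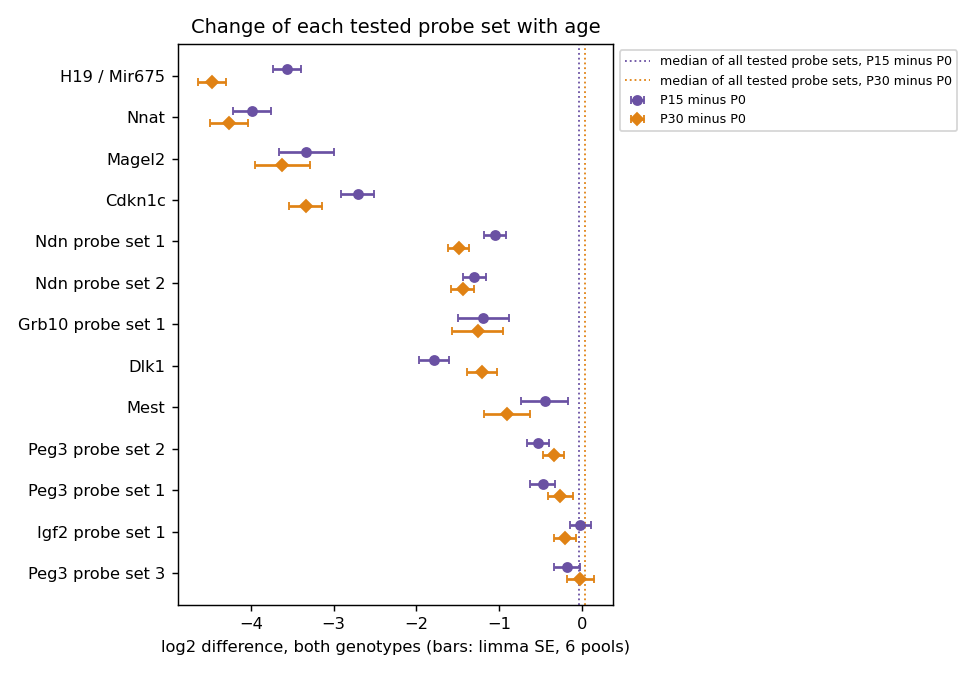
Difference from P0 at P15 (circles) and at P30 (diamonds) for each of the 13 tested probe sets (y axis), on the log2 scale (x axis) with bars for the limma standard error over 6 pools, and dotted lines for the medians of all tested probe sets, at -0.033 and 0.036. H19/Mir675, Nnat, Magel2 and Cdkn1c lie below -2.5, and the Peg3, Igf2 and Mest probe sets lie between -0.90 and 0.

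The decline was next read within each genotype, where 1 pool stands against 1 pool and no test is possible. A change was counted when the pool means differed by at least 2-fold and the arrays did not overlap. From P0 to P15, 7 of the 13 probe sets were lower in euploid by this measure, against 6.75% of all tested probe sets, and 7 in Ts1Cje, against 6.15%. In both genotypes at once there were 6, Nnat, Magel2, the second of Ndn, Dlk1, H19/Mir675 and Cdkn1c, against 3.76%. The first Grb10 probe set was counted in euploid alone (-1.76, against -0.61 in Ts1Cje), and the first of Ndn in Ts1Cje alone (-1.11, against -0.99 in euploid, just short of 2-fold). From P15 to P30, 0 members were counted in euploid, against 2.05% of all, and 1 in Ts1Cje, H19/Mir675 at -1.05, against 2.56%. The euploid and Ts1Cje falls to P15 were -4.52 and -3.47 for Nnat, -3.83 and -2.84 for Magel2, -2.39 and -3.04 for Cdkn1c, and -2.07 and -1.52 for Dlk1. Those of Magel2 end on P15 readings near the pseudocount, so the difference between its 2 falls is not resolved.

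Averaged over stages, 0 of 13 members differed between the genotypes by limma, and the share called over all tested probe sets was 0.0%. At an unadjusted p under 0.05, 1 member and 217 of all tested probe sets passed. That member was the first Igf2 probe set, higher in Ts1Cje by 0.29 ± 0.11 (limma, adjusted p = 1.0) and on the pool means at each of the 3 stages. The other differences ran from -0.18 for the first Grb10 probe set to 0.32 ± 0.15 for Dlk1, and 2 of 13 were below 0. The change of the genotype difference over age was called in 0 of 13 members and 0.0% of all, with 0 members and 193 of all probe sets at an unadjusted p under 0.05.

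Within stages, no test is possible, and the arrays of the genotypes did not overlap for 8 of 13 members at P0, 4 at P15 and 0 at P30. Over all tested probe sets 44.3% did not overlap at P0, 39.5% did not at P15 and 39.4% did not at P30, so arrays that stand apart are common between these pools. At P0, Cdkn1c was higher in Ts1Cje by 0.64, Mest by 0.74 and the first Igf2 probe set by 0.45, and the first Grb10 probe set was lower at -0.81. Magel2 stood apart at -0.12, and the Ndn probe sets stood apart in opposite directions, the first at 0.14 and the second at -0.22. At P15, Nnat was higher in Ts1Cje by 0.67, Magel2 by 0.87, the first Igf2 probe set by 0.29 and the first Peg3 probe set by 0.24, which at P0 had been lower at -0.25. Magel2 read 4.95 in euploid and 12.3 in Ts1Cje there, near the pseudocount, so its difference is not resolved. H19/Mir675 overlapped at every stage, with differences of 0.084, 0.18 and -0.092.

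**Figure D3:**
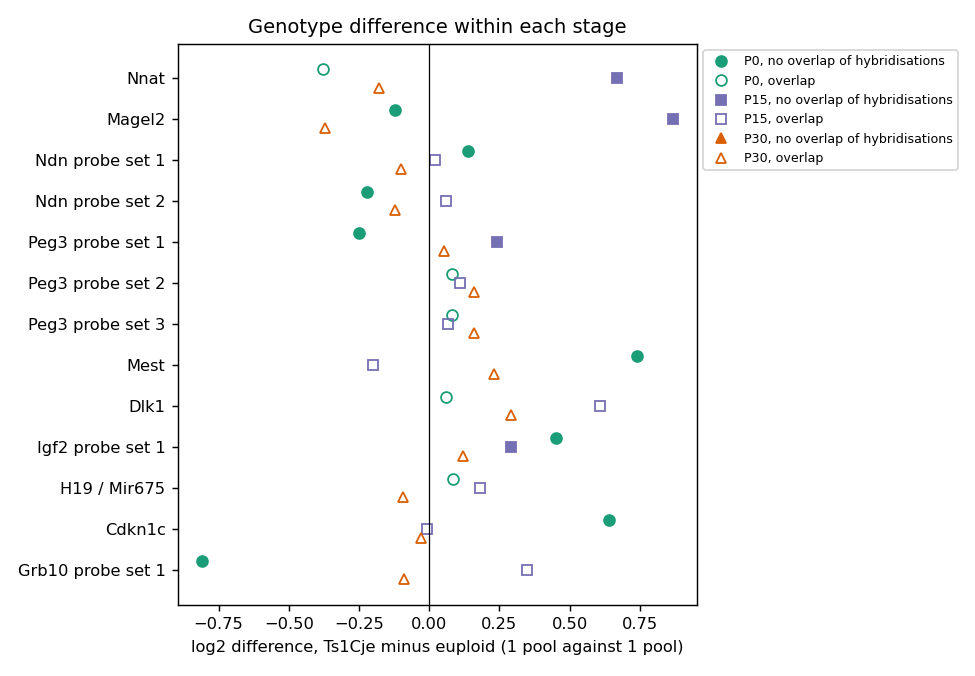
Ts1Cje minus euploid difference of each tested probe set (y axis) on the log2 scale (x axis) at P0 (circles), P15 (squares) and P30 (triangles), 1 pool against 1 pool, filled where the 2 arrays of one genotype do not overlap those of the other. Filled symbols occur at P0 and P15, up to 0.87 for Magel2 at P15, from readings near the pseudocount, and down to -0.81 for the dim first Grb10 probe set at P0.

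Imprinted genes lie in clusters, and the nearest tested gene on each side of a member was read from the RefSeq gene order. Only genes with a probe set of a single symbol were read. H19/Mir675, 3 genes from Igf2 and nearer to it than Mrpl23, was therefore passed over, and it fell by 3.56 ± 0.17 to P15. Untested genes can lie between, so such a gene need not belong to the same cluster. Counted in genes along that order, Ube3a was 248 from Ndn, and Ppp3r1 was 40 from Grb10. Zc3hc1 was 12 and Chchd3 31 from Mest, and Zfp444 was 23 and Zfp954 11 from Peg3. Rprd1b was 11 from Nnat, Th 8 from Igf2 and Wars 7 from Dlk1, and the others were at most 5 away. Blcap, in whose intron Nnat lies, fell by 1.47 ± 0.21 to P15 (limma, adjusted p = 0.00122) and by 0.99 ± 0.21 to P30 (limma, adjusted p = 0.0056), while Rprd1b on the other side was not called (-0.16 to P15). Mkrn3, the paternal gene beside Magel2, fell by 1.74 ± 0.25 to P15 (limma, adjusted p = 0.00143) and by 2.31 ± 0.25 to P30 (limma, adjusted p = 0.00021). Meg3, the maternal noncoding RNA beside Dlk1, fell by 0.97 ± 0.27 to P15 (limma, adjusted p = 0.0294) and by 1.10 ± 0.27 to P30 (limma, adjusted p = 0.0123), while Wars on the other side of Dlk1 was not called (-0.20 to P15). Ube3a, the nearest tested gene on the far side of Ndn, was not called (-0.39 to P15). Ddc, which makes dopamine and serotonin and lies beside Grb10, fell by 0.85 ± 0.24 to P15 (limma, adjusted p = 0.0289), and Ppp3r1 on the other side of Grb10 rose by 0.60 ± 0.15 to P30 (limma, adjusted p = 0.0139). Of the nearest tested genes of Mest, Zc3hc1 fell by 0.76 ± 0.19 to P15 (limma, adjusted p = 0.0172) and Chchd3 was not called (0.37). The nearest tested genes of Peg3, Zfp444 and Zfp954, were not called to P15 (-0.24 and 0.018), nor were Mrpl23 (-0.18) and Th (-0.24) beside H19 and Igf2. Kcnq1 (0.12) and Slc22a18 (0.091) beside Cdkn1c were not called to P15, and Slc22a18 rose by 0.86 ± 0.21 to P30 (limma, adjusted p = 0.0129).

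Other imprinted genes moved both ways from P0 to P30. Of 26 further genes active mainly on the paternal copy, 6 were tested: 3 fell and 1 rose, with a median of -0.87. Those that fell were Mkrn3, Plagl1, a zinc finger regulator of other imprinted genes (-2.10 ± 0.23, limma, adjusted p = 0.0002), and Ddc, and the one that rose was Rasgrf1, an exchange factor for Ras in neurons (2.17 ± 0.28, limma, adjusted p = 0.000487). Of 36 genes active mainly on the maternal copy, 17 were tested: 4 fell and 4 rose, with a median of 0.17. Osbpl5, a lipid carrier, fell by 1.17 ± 0.16 and Commd1 by 0.93 ± 0.22, beside Meg3 and Blcap, whereas Pon2, a lactonase, rose by 1.01 ± 0.16.

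**Figure D4:**
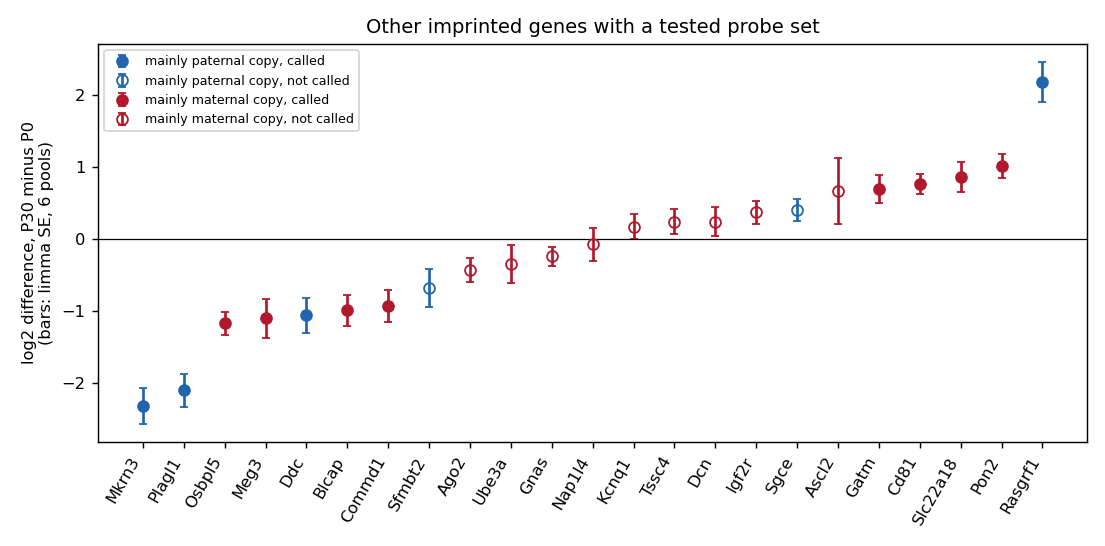
Difference between P30 and P0 on the log2 scale (y axis, bars for the limma standard error over 6 pools) of the 23 other imprinted genes with a tested probe set (x axis), blue for genes active mainly on the paternal copy and red for those on the maternal copy, filled where called. Values run from -2.31 for Mkrn3 to 2.17 for Rasgrf1.

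The partners of the members were read from 4 lists over P0 to P30. Among IGF ligands, receptors, carriers and adaptors, 15 of 24 genes were tested; 3 fell and 4 rose, with a median of 0.30. The carrier Igfbp2 fell by 1.22 ± 0.16 (limma, adjusted p = 0.000505), while the carrier Igfbp6 rose by 3.14 ± 0.26 (limma, adjusted p = 4.62e-05) and the ligand Igf1 by 0.74 ± 0.18 (limma, adjusted p = 0.0102). Igf2r, the receptor that clears Igf2, was at 0.37 ± 0.16 and Igf1r, the signalling receptor, at 0.30 ± 0.15, neither called. Grb7, of the Grb10 family, rose by 1.23 ± 0.23 (limma, adjusted p = 0.00325).

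Of the MAGE family and its partners, 8 of 11 genes were tested and 3 fell, with a median of -0.27: Maged2 (-2.75 ± 0.21), Maged1 (-0.89 ± 0.15), which like Ndn binds neurotrophin receptors, and Nsmce1 (-0.67 ± 0.18). The Magel2 partners Trim27 (-0.40 ± 0.16), Usp7 (-0.10 ± 0.15) and Vps35 (-0.14 ± 0.13) were not called. Among CDK inhibitors and G1 regulators, beside Cdkn1c, 10 of 17 were tested and 4 fell, Cdk2 (-1.0 ± 0.22), Rb1 (-0.98 ± 0.20), Cdk4 (-0.89 ± 0.14) and Cdkn2d (-0.51 ± 0.15). In the Notch list, beside Dlk1, 8 of 15 were tested; 3 fell, Hes5 (-2.53 ± 0.32), Dll1 (-2.09 ± 0.31) and Notch1 (-0.91 ± 0.18), and Hey1 rose by 0.94 ± 0.27.

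Profiles over the 6 pools, each centred on its own mean, were compared with those of tested genes whose probe set carries a single symbol. H19/Mir675 could therefore not be listed as a like gene. Of the genes that could, the closest to Nnat was Magel2, at a root mean square distance of 0.33. Tac1 (0.41), the precursor of substance P, and Shox2 (0.44) followed. H19/Mir675 also lay at 0.33 from Nnat, and the later Magel2 readings are near the pseudocount. Magel2 was closest to Tac1 (0.14) and to Slc6a4 (0.28), the serotonin transporter. H19/Mir675 was closest to Nnat (0.33), Cdkn1c to St8sia4 (0.20), Dlk1 to Smoc1 and Hddc2 (0.14 each), and Ndn to Grik1 and Cdh2 (0.069 each). Peg3 was closest to Ssna1 (0.015), Igf2 to Rpe (0.058), Mest to Rab10 (0.092) and Grb10 to Ykt6 (0.14). The smallest distance between members, 0.28, was that of Peg3 and Igf2. Profiles were not scaled, so genes that change little come out close whatever their shape. Peg3 moved by -0.47 to P15 and 0.20 from P15 to P30, and Igf2 by -0.017 and -0.18.

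Markers of other cells moved with stage too, and their part in the members' fall was not tested. Of 16 immature neuron markers 14 were tested, of which 13 fell from P0 to P30 and 1 rose, and their summed signal per pool was 24092 to 24982 at P0, 11979 to 12111 at P15 and 7473 to 8032 at P30. Of the 13 that fell, 10 fell more before P15 than after, and the list medians were -1.50 from P0 to P15 and -0.53 from P15 to P30. St8sia2, which adds polysialic acid to NCAM, fell by 2.97 to P15 and stood at 0.22 from P15 to P30, whereas Dcx, Sox11 and Marcksl1 fell more after P15 (Dcx -1.68, then -4.15). Of 24 cell division markers 15 were tested, of which 10 fell and 0 rose, with sums of 1338 to 1551 at P0, 952 to 970 at P15 and 743 to 776 at P30. Of 17 hypothalamus and brainstem markers 7 were tested, of which 2 fell and 1 rose, and the sums were 699 in euploid and 439 in Ts1Cje at P0 against 268 to 377 later. Slc6a4 read 73.4 and 106 at P0 and 1.45 to 13.5 later, and Hoxa5, a gene of the posterior hindbrain, read 252 in the euploid P0 pool, 31.3 in the Ts1Cje P0 pool and 12.1 to 30.4 later. Hoxb4 stayed at or under the pseudocount on every array. Between the P0 pools these markers differed both ways, with Hoxa5 lower and Slc6a4 higher in Ts1Cje. Their part in the P0 genotype differences of Grb10, Cdkn1c, Mest and Igf2 was not tested.

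Markers of tissue attached to the cerebellum moved both ways. Of 13 meninges and fibroblast markers 10 were tested, of which 3 fell from P0 to P30, Col3a1 (-1.83 ± 0.25), Col1a1 (-1.53 ± 0.25) and Fbln1 (-0.86 ± 0.16), and 2 rose, Ptgds (1.81 ± 0.14) and Nupr1 (1.28 ± 0.24). The summed signal at P0, P15 and P30 was 1779, 1950 and 4346 in euploid and 2509, 2458 and 4443 in Ts1Cje. Without Ptgds it was 950, 880 and 914 in euploid and 1293, 986 and 871 in Ts1Cje. Of 10 choroid plexus markers 3 were tested and all 3 rose to P30, while Cldn2 stayed at or under the pseudocount. Their sums were 418, 163 and 809 in euploid and 176, 174 and 1044 in Ts1Cje, so at P0 Ts1Cje lay below euploid (Ttr read 140 against 359), opposite to the meninges sums and to the first Igf2 probe set. The part of either tissue in the Igf2 difference was not tested. Of 12 endothelium markers 8 were tested, with 2 lower, 1 higher and sums of 661 to 851, and of 9 blood markers 3 were tested, with 0 called. The blood sums were 4729, 7247 and 4749 in euploid and 3286, 2782 and 2742 in Ts1Cje, lower in Ts1Cje at every stage, with a median genotype difference of -1.0, and their part in the members' genotype differences was not tested.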

How the data were processed

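The deposited values are linear signal intensities, 1 per probe set and array, which the authors made with MAS5, per the submitters' processing notes; the version and settings of MAS5 were not stated in those notes. All 12 arrays had a trimmed mean of 100.05 to 100.06 (2% trimmed at each end), and no further scaling was applied. Values were transformed to log2(signal + 4.6), the 20th percentile of all values. The 66 control probe sets and all probe sets averaging less than 20.1, the 40th percentile of means, were left out. Both arrays of a pool were averaged, and limma 3.58.1 in R 4.3.3 (lmFit, eBayes with trend) was fitted to 6 pools with genotype and stage (2 residual degrees of freedom), or with genotype by day added (1). Tests were two-sided with Benjamini-Hochberg adjustment, and the fit was tested on simulated data. The number of pools, 1 per genotype and stage, limits the precision. Probe set genes came from the platform annotation, checked against RefSeq (GRCm38.p6), with 10839 of 10855 single-symbol probe sets matched; 396 had several symbols and 1237 none. A gene in a list was taken by its brightest probe set. Named are all member probe sets, up to 6 called genes of largest P30 minus P0 difference from each list, and genes among the 3 nearest to each member. The nearest genes were sought among tested probe sets with a single symbol. The members and lists were chosen with earlier results of these data known. Alternatives changed the pseudocount, filter, scaling, variance model, replicate unit and pools.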

Additional observations from a re-analysis of the deposited data

Results flagged for a closer look

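Between P15 and P30, Nnat moved in opposite directions in the 2 genotypes: 0.16 in euploid and -0.70 in Ts1Cje, with the arrays of P15 and P30 apart in both. Each value sets 1 pool against 1 pool, and the difference between the genotypes over this step was not tested. Without the Ts1Cje P15 pool the step fitted over both genotypes was 0.20, and without the euploid P15 pool it was -0.75.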

How the results depend on the processing

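Nnat, Magel2, both Ndn probe sets, Dlk1, H19/Mir675 and Cdkn1c were called lower from P0 to P15 and from P0 to P30 under every alternative in which they were tested. The counts of called members for P0 to P15, P0 to P30, genotype and genotype by day kept within 1.5 times of the reported ones in every alternative run. The count for P15 to P30 was 2 with equal array medians, which shifted the median of all probe sets by -0.11, and 2 with the replicate block, and ranged from 0 to 2 when an array set or a pool was left out. The median over members from P0 to P30 was -1.1 with a pseudocount of 16 and -1.05 with no filter, and -1.53 to -1.22 with an array set or pool left out. With equal medians the genotype difference was -0.0017 for Nnat, -0.014 for the first Ndn and -0.026 for the first Peg3 probe set; quantile normalization also gave -0.014 for Ndn. For Igf2, P15 minus P0 was 0.14 with quantile normalization and 0.052 with equal medians. Leaving out an array set or a pool also turned signs in differences that had not been called. For P15 to P30 the ranges were -0.75 to 0.20 for Nnat, -0.85 to 0.27 for Magel2 and -0.47 to 0.32 for the first Grb10 probe set. For P0 to P30 the third Peg3 probe set ranged from -0.061 to 0.029, and for P0 to P15 Igf2 from -0.14 to 0.10. The genotype difference ranged from -0.28 to 0.31 for Nnat, -0.27 to 0.52 for Magel2, -0.046 to 0.093 for the first Ndn, -0.10 to 0.14 for the first Peg3 and -0.031 to 0.24 for the third Peg3 probe set. It ranged from -0.057 to 0.70 for Dlk1, -0.0041 to 0.13 for H19/Mir675, -0.019 to 0.32 for Cdkn1c and -0.69 to 0.32 for the first Grb10 probe set. The cause was not tested. Differences between the first and second array of a pool correlated from -0.124 to 0.354 between pools, with 7 of 15 pool pairs over 0.1. Some pools thus shared part of this difference. The main fit averaged both arrays of a pool. The replicate block, fitted on 12 arrays with the pool as a random block, added the first Ndn probe set from P15 to P30 (-0.44, limma, adjusted p = 0.00971) and the second Peg3 probe set from P0 to P30 (-0.34). Genotype by day could not be fitted without a pool, since no residual degree of freedom is left. Signal near background limits Magel2 after P0, Mest and Grb10.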
